A study of Mus musculus with 22 samples.

Results

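The genes that encode the proteins of the cytosolic ribosome were followed through mouse pancreas at postnatal day 10, in young adulthood and after experimental pancreatitis. Ehmt2, which encodes a histone H3 lysine 9 methyltransferase, was either intact or floxed for deletion by Cre in pancreatic epithelium. A gene was taken as a member when its symbol was Rpl or Rps with a number and at most 1 closing letter a, x, y or l, or was Rpsa, Rplp0, Rplp1 or Rplp2. The rule used names only and found 80 of the 16235 genes listed, 48 for the large and 32 for the small subunit, on 19 chromosomes with 4 of them (Rpl10, Rpl36a, Rpl39 and Rps4x) on X. Of these, 77 are protein coding and had counts in all 22 libraries. The other 3, Rpl6l, Rpl32l and Rps4l, are annotated as processed pseudogenes in GENCODE vM21, were caught by their symbols and were listed only in the caerulein comparisons. Because ribosomal protein genes have many near-identical processed copies, reads may be split between gene and copy, and the level of any single member is uncertain to that extent.

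Whole pancreas RNA of C57Bl/6 mice was sequenced in 8 groups, all of which carried a Cre driver. Pdx1-Cre; Ehmt2+/+ (n = 3) and Pdx1-Cre; Ehmt2fl/fl (n = 3) were taken at postnatal day 10 (PN), and Pdx1-Cre; Ehmt2+/+ (n = 2) and Pdx1-Cre; Ehmt2fl/fl (n = 3) as untreated young adults (YA), 1 month old by the column names. Adults with acute pancreatitis were Pdx1-Cre; Ehmt2+/+ (n = 4), Pdx1-Cre; Ehmt2fl/fl (n = 2), P48-Cre; Ehmt2+/+ (n = 2) and P48-Cre; Ehmt2fl/fl (n = 3). Caerulein, which overstimulates acinar secretion, was given at 50 μg/kg in 8 injections an hour apart to mice fasted for 12 h, which were killed 18 h after treatment began. Pdx1-Cre acts in the epithelium of the whole organ, islets included, while P48-Cre is carried by the Ptf1a locus, so that P48-Cre mice of both genotypes have a single intact Ptf1a allele. No library served as an untreated P48-Cre group. The YA mice are labelled with no treatment, so in every caerulein comparison caerulein, the fast, the injections and the cohort cannot be told apart. In whole tissue, fewer cells of a type and less RNA per cell cannot be told apart.

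Each cytosolic ribosome holds 1 copy of nearly every ribosomal protein, and the genes for these proteins are among the most highly transcribed in any cell. Their mRNAs begin with a 5′ terminal oligopyrimidine tract (TOP), an unbroken stretch of C and T at the transcription start through which the mTOR pathway and the RNA-binding protein Larp1 control their translation and stability. Acinar cells, which make more secreted protein than almost any other cell, are packed with ribosomes on rough endoplasmic reticulum.

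This start is shown because it is a sequence feature described for such mRNAs that the choice by name did not use. Promoter sequences from RefSeq on GRCm38.p6 were matched for 58 of the 80 members. Where a gene had several annotated starts, the longest run among them was taken, for members and all genes alike. In a window of 30 bases, 10 before and 20 after the annotated start, a run of at least 8 pyrimidines was found for 24 of 58 members (41.4%), against 13.0% of 27025 genes, and a run of at least 10 for 18 members (31.0%), against 5.59% of genes. The pseudogene Rpl32l is in both counts, and the 27025 genes include the members. The number of annotated starts per gene was not compared between members and all genes. The windows of 4 members with long runs, and of 4 whose values are described below, are given 5′ to 3′ with the longest pyrimidine run in capitals.
Rpl7a (chr2:26910797-26910826, + strand): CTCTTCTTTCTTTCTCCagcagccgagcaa
Rpl35 (chr2:39005112-39005141, - strand): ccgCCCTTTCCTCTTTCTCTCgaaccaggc
Rps18 (chr17:33955646-33955675, - strand): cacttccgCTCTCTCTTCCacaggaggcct
Rps6 (chr4:86857348-86857377, - strand): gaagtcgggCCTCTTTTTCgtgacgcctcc
Rpl13a (chr7:45128726-45128755, - strand): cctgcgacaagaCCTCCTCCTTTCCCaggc
Rps27 (chr3:90213629-90213658, - strand): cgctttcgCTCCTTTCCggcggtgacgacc
Rps25 (chr9:44407704-44407733, + strand): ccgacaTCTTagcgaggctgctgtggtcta
Rps28 (chr17:33824543-33824572, - strand): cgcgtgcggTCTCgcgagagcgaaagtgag
Rps25 and Rps28 held no run of 8 in this window, which says only that these letters do not stand beside the annotated start. In the full 300 bases, 250 before and 50 after the start, CCGGAAG, the core bound by ETS factors, stood on either strand for 24 members (41.4%, against 9.93% of genes). The core GCCATNTT, bound by YY1, stood on either strand for 11 members (19.0%, against 6.96%), and 34 of the 58 held at least 1 of these motifs. The TATA box letters TATAAA, searched on the gene's strand in the 30 bases that end 20 before the start, were found for 0 of 58 members and 2.63% of genes.

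The libraries held between 14229980 and 40321967 counts on listed genes, of which 206646 to 2029998 fell on members, so that counting error was small beside the spread between mice. Digestive enzyme mRNAs took 83.7 to 87.3% of counts over the 11791 genes shared by all libraries in YA pancreas, 55.2 to 62.0% in PN and 41.6 to 68.2% after caerulein. This sets the scale of every comparison. Counts were scaled by TMM, the trimmed mean of M-values, which holds the middle of the distribution of genes steady, and levels are given as CPM, each count divided by the library size after this scaling and multiplied by a constant. On the scale of library totals the median of all genes tested shifted by 1.53 and 2.35 (log2) after caerulein in the 2 genotypes, and by -1.72 and -2.03 with age, so members are also described relative to the median gene. The Ehmt2 gene gave 42.5 ± 8.9 CPM in PN Ehmt2+/+ and 41.8 ± 8.3 in PN Ehmt2fl/fl (SD, n = 3 each), 62.3 ± 15.1 (n = 2) and 68.4 ± 3.2 (n = 3) in YA, 65.2 ± 3.4 (n = 4) and 57.6 ± 0.65 (n = 2) in treated Pdx1-Cre, and 61.1 ± 12.5 (n = 2) and 48.2 ± 11.0 (n = 3) in treated P48-Cre pancreas. None of these 4 genotype differences passed the test, and counts over the whole gene, in tissue where only some cells carry Cre, do not isolate the deleted exons.

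Members took 1.02 to 1.29% of the counts of shared genes in YA pancreas, 2.41 to 6.58% in PN and 2.28 to 4.89% after caerulein. With digestive enzyme and mitochondrial genes left out of the total, the share was 8.26 ± 0.22% in YA Ehmt2+/+ (n = 2), 8.41 ± 2.17% in YA Ehmt2fl/fl (n = 3) and 7.61 ± 1.48% in treated Pdx1-Cre; Ehmt2+/+ (n = 4), but 4.79 ± 0.76% in treated Pdx1-Cre; Ehmt2fl/fl (n = 2). It was 9.04 ± 2.25% in treated P48-Cre; Ehmt2+/+ (n = 2) and 9.41 ± 1.66% in treated P48-Cre; Ehmt2fl/fl (n = 3). PN pancreas had 13.6 ± 5.56% with Ehmt2+/+ and 8.36 ± 3.34% with Ehmt2fl/fl (n = 3 each), the widest spreads of the 8 groups. Per kilobase of the length given in the files, Rplp1 was the most abundant member, at 1898 CPM per kb averaged over the libraries. It stood ahead of Rpl32 (739) and Rplp0 (699), and Rpl22 was the least abundant, at 45.8. By CPM not divided by length, Rplp0 was the highest, at 1159, and Rpl27 the lowest, at 94.6. The order therefore depends on the lengths used.

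The members moved as a block from mouse to mouse. The median member stood at 214, 676 and 594 CPM in the 3 PN Ehmt2+/+ mice and at 206, 413 and 192 CPM in the 3 PN Ehmt2fl/fl mice. All 77 members were lower in the first PN Ehmt2+/+ mouse than in the other 2, as were 42.7% of all 11791 shared genes, and all 77 were higher in the second PN Ehmt2fl/fl mouse than in the other 2, as were 45.0% of all genes. In the labels' animal identifiers PN Ehmt2+/+ replicates 2 and 3 share a leading number that replicate 1 does not have, as PN Ehmt2fl/fl replicates 1 and 2 share one that replicate 3 does not have, and what that number marks is not given in the sources used here. The high and low mice fell along it in Ehmt2+/+ but not in Ehmt2fl/fl. In YA pancreas the median member was at 351 and 297 CPM in Ehmt2+/+ and at 488, 297 and 235 CPM in Ehmt2fl/fl. It was at 319, 260.1, 257 and 195 CPM in treated Pdx1-Cre; Ehmt2+/+ and at 146 and 182 CPM in treated Pdx1-Cre; Ehmt2fl/fl, the 2 lowest values of the 22 libraries. In treated P48-Cre pancreas it was at 365 and 251 CPM in Ehmt2+/+ and at 263, 312 and 398 CPM in Ehmt2fl/fl, which overlap.

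**Figure D1:**
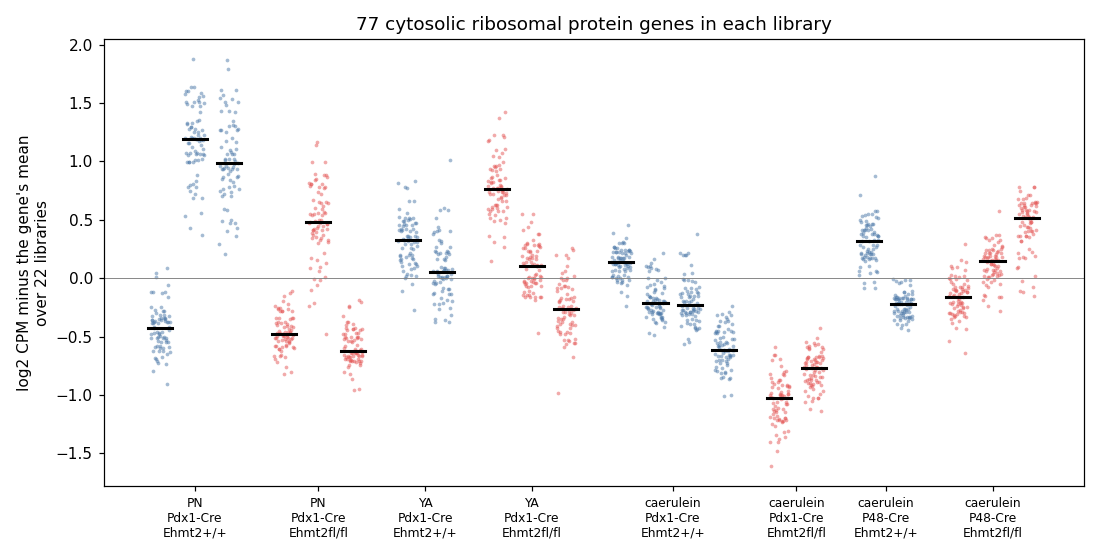
Level of 77 ribosomal protein genes in each of 22 libraries, as log2 CPM after TMM scaling minus the gene's mean over the libraries. Each point is a gene, the bar is the median of the library, blue is Ehmt2+/+ and red Ehmt2fl/fl. The genes of a library shift together, 2 PN Ehmt2+/+ libraries stand highest and the 2 treated Pdx1-Cre; Ehmt2fl/fl libraries lowest, an order that belongs to this scaling.

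After caerulein, in Pdx1-Cre; Ehmt2fl/fl pancreas, 78 of 80 members fell relative to the middle of all genes and none rose (adjusted p under 0.1, edgeR quasi-likelihood test with Benjamini-Hochberg adjustment over 13468 genes). The same call was made lower for 26% of all genes tested and higher for 28.9%. The median log2 difference of the members was -1.18 (range -1.90 to 0.05), beside 0.10 for all genes, and 62 members fell by at least 2-fold, a call made lower for 15.1% of genes. The pseudogenes Rpl6l and Rpl32l are among the 78, and the ends of the range are those of the pseudogenes Rpl32l and Rps4l. In Pdx1-Cre; Ehmt2+/+ pancreas 4 of 80 fell, where 19.6% of all genes were called lower and 20.5% higher, and none rose, with a median of -0.38 (range -0.97 to 0.59) beside 0.08 for all genes. DESeq2 called 78 and 12 members lower, against 27.7% and 19.8% of genes. These directions are relative. When counts were scaled by library totals, 79 and 80 members were called higher, as were 93.2% and 86.8% of all genes, with medians of 1.16 and 1.07, below the 2.35 and 1.53 of all genes. Relative to the median gene, the median member stood at -1.28 in Ehmt2fl/fl and -0.45 in Ehmt2+/+ under TMM, and at -1.19 and -0.45 under library totals. Of the 77 coding members, 76 were lower in both treated Ehmt2fl/fl mice than in all 3 untreated ones, as were 33.3% of all genes, and 29 were lower in all 4 treated Ehmt2+/+ mice than in both untreated ones, as were 24.5% of all genes.

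Single mice moved these counts, and the share of all genes called in the fits without a mouse is not given. The 78 became 44 without treated Ehmt2fl/fl replicate 1. The 4 became 0 without YA Ehmt2+/+ replicate 1, 12 without treated replicate 1 and 2 without treated replicate 4. By the counts of Y-linked genes, YA mice were of both sexes, while all treated mice of the Ehmt2+/+ group read as female and both with Ehmt2fl/fl as male. With sex as a term, which could be estimated from the YA mice alone, 78 members were lower in Ehmt2fl/fl, where 23.7% of genes were, and 1 was higher and none lower in Ehmt2+/+, where 17.2% of genes were higher.

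Markers of cell types moved with treatment as well. In Ehmt2fl/fl the summed level of 17 of 18 acinar markers was 1299110 to 2308690 CPM in YA and 136346 to 157786 CPM after caerulein, and that of 14 of 14 macrophage and monocyte markers was 131 to 162 CPM and then 1804 to 2119 CPM. All 12 duct markers together were at 1001 to 1111 CPM and then at 4455 to 4806 CPM, and 10 of 10 fibroblast markers at 1204 to 1537 CPM and then at 2210 to 3322 CPM. In Ehmt2+/+ acinar markers went from 1435890 to 2250410 CPM in YA to 277048 to 518876 CPM, macrophage and monocyte markers from 117 to 246 CPM to 656 to 1103 CPM, and duct markers from 696 to 888 CPM to 3786 to 7097 CPM. Fibroblast markers in that genotype were at 803 to 826 CPM and then at 608 to 2229 CPM, which overlap. Islet markers, 11 of 12, were lower after caerulein in Ehmt2+/+ (1375 to 2067 against 228 to 871 CPM) and overlapped in Ehmt2fl/fl (1590.1 to 2481 against 954 to 2031 CPM). The part of these cell types in the members' differences was not tested.

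The P-proteins form the stalk that recruits elongation factors to the large subunit. Rplp1 was at 1368 and 1313 CPM in YA Ehmt2+/+ and at 978, 762, 817 and 594 CPM in the treated mice of this genotype. It was at 2236, 1264 and 973 CPM in YA Ehmt2fl/fl and at 423 and 484 CPM after caerulein, so treated and untreated mice did not overlap in either genotype. Under TMM it fell by 0.76 ± 0.30 (log2, SE; adjusted p = 0.0790) and by 1.71 ± 0.35 (adjusted p = 0.0022), and under library totals it was higher by 0.68 and 0.66. Rplp0, the scaffold of the stalk, fell by 1.42 ± 0.31 in Ehmt2fl/fl (adjusted p = 0.0035) and had a difference of -0.62 ± 0.28 in Ehmt2+/+ (adjusted p = 0.110). For Rplp2 the differences were -0.97 ± 0.32 (adjusted p = 0.0275) and -0.18 ± 0.29 (adjusted p = 0.674).

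Of the small subunit proteins, Rps25, which contacts mRNA during internal initiation, was at 483 and 458 CPM in YA Ehmt2+/+ and at 293, 239, 252 and 169 CPM after caerulein. In Ehmt2fl/fl it was at 715, 372 and 287 CPM and, after caerulein, at 133 and 153 CPM. It fell by 0.97 ± 0.32 in Ehmt2+/+ (adjusted p = 0.0369), the largest fall in that genotype, and by 1.66 ± 0.37 in Ehmt2fl/fl (adjusted p = 0.0034), with 0.47 and 0.71 under library totals. Rps2, near the mRNA entry site, fell by 0.80 ± 0.30 in Ehmt2+/+ (adjusted p = 0.0650). Rps6, the substrate of the S6 kinases, fell by 1.05 ± 0.29 in Ehmt2fl/fl (adjusted p = 0.0124), and Rpsa, also known as the laminin receptor, by 1.02 ± 0.32 (adjusted p = 0.0217). Rps27a, made as a fusion with ubiquitin, fell by 1.12 ± 0.29 (adjusted p = 0.0087). The X-linked Rps4x fell by 1.33 ± 0.30 (adjusted p = 0.0040). Under library totals each of these members was higher after caerulein in both genotypes, Rps4x by 1.01 ± 0.21 in Ehmt2fl/fl.

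The exception among the coding members was Rps27, at 134 and 148 CPM in YA Ehmt2+/+ and at 223, 129, 126 and 131 CPM after caerulein. In Ehmt2fl/fl it was at 195, 117 and 102 CPM and, after caerulein, at 77.5 and 121 CPM, within reach of the untreated mice. Its differences were 0.12 ± 0.31 (adjusted p = 0.805) and -0.46 ± 0.33 (adjusted p = 0.275). Its paralogue Rps27l, a p53 target, fell by 1.52 ± 0.29 in Ehmt2fl/fl (adjusted p = 0.0016). The other member that did not pass was the pseudogene Rps4l, with 0.05 ± 0.42 (adjusted p = 0.928), while the pseudogene Rpl6l had the lowest adjusted p of all (0.0010) and Rpl32l the lowest log2 difference (-1.90). Reads of Rpl6 and Rpl32 may be counted in part at these copies.

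On the large subunit, Rpl32 fell by 0.92 ± 0.32 in Ehmt2+/+ (adjusted p = 0.0485) and by 1.86 ± 0.37 in Ehmt2fl/fl (adjusted p = 0.0020), the largest fall of a coding member. Rpl38, which in mouse embryos is needed for translation of Hox mRNAs, fell by 1.47 ± 0.29 in Ehmt2fl/fl (adjusted p = 0.0018). Rpl5 and Rpl11, which bind 5S rRNA and can inhibit Mdm2 when free, fell by 1.20 ± 0.34 (adjusted p = 0.0142) and 1.17 ± 0.33 (adjusted p = 0.0121) in Ehmt2fl/fl, with -0.33 ± 0.31 and -0.49 ± 0.29 in Ehmt2+/+. Rpl22, which also regulates splicing of its paralogue Rpl22l1, fell by only 0.71 ± 0.25 (adjusted p = 0.0375). Rpl13a, which in human monocytes joins a complex that silences inflammatory mRNAs, fell by 1.33 ± 0.45 (adjusted p = 0.0297).

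The caerulein comparisons of the 2 genotypes share no library, and the order of the members was alike in both. Across 77 coding members, which are not independent replicates and share reads, depth and the same YA and treated tissue, Pearson's r of the log2 differences was 0.85 and Spearman's rho 0.84. Rpl32, Rplp1 and Rps25 were among the 4 lowest in both, and Rps27 was the highest in both. The 24 matched members with a pyrimidine run of at least 8, the pseudogene Rpl32l among them, had medians of -0.36 in Ehmt2+/+ and -1.10 in Ehmt2fl/fl, and the 34 matched members without had -0.41 and -1.21, a difference that was not tested.

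Whether caerulein acted differently on the members in the 2 genotypes was tested by the interaction. All 80 estimates were negative, with a median of -0.80 (range -1.34 to -0.39), beside 0.00 for all genes. None passed the threshold, where 0.876% of all genes were called lower and 0.394% higher. At an unadjusted p under 0.05 there were 12 of 80 members, a share near the 14.1% of all genes, and DESeq2 called 1 lower, against 3.19% of genes. The lowest p among coding members was that of Rps27l, with -1.11 ± 0.39 (adjusted p = 0.246). Without treated Ehmt2+/+ replicate 4 the count was 2, with no share of all genes from that fit beside it. Under library totals the median was 0.10, against 0.81 for all genes.

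**Figure D2:**
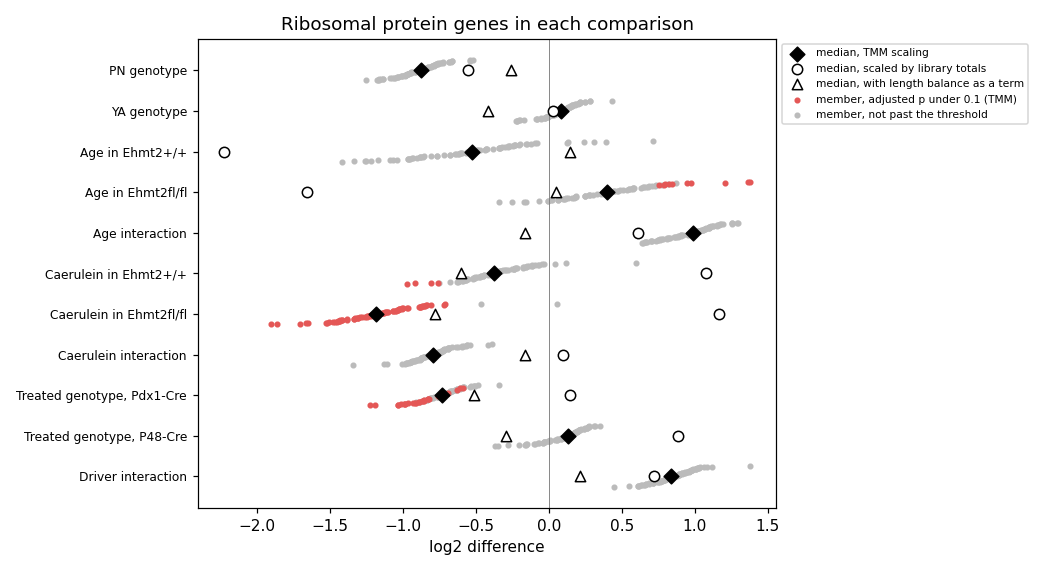
Log2 differences of ribosomal protein genes in 11 comparisons, first named condition or Ehmt2fl/fl minus the other, with red points for adjusted p under 0.1 and grey points for the rest under TMM scaling. The black diamond is their median under TMM, the open circle the median under library totals and the open triangle the median with length balance as a term. After caerulein the TMM medians of -0.38 and -1.18 turn to 1.07 and 1.16 under library totals.

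The balance between long and short transcripts ran against the members' mean level over the 11 YA and treated Pdx1-Cre libraries (Pearson's r = -0.66). Length balance is the mean log2 level of the longer genes minus that of the shorter ones, taking the top and the bottom tertile of length, centred over the libraries of a fit, with members, digestive enzyme and mitochondrial genes left out. It was 0.11 and 0.13 in the 2 treated Ehmt2fl/fl mice and -0.23, -0.04 and 0.04 in the YA mice of that genotype. In Ehmt2+/+ it was -0.20, -0.11, -0.13 and 0.27 after caerulein and 0.00 and 0.15 in YA. In that genotype the balance was lower than in both YA mice for treated replicates 1 to 3 and higher for replicate 4. The part of length balance in the members' differences was not tested. Most members are short, with a median length in the files of 1754.5 bases against 3967 for all genes. With length balance as a term in the fit, 69 members were lower in Ehmt2fl/fl (median -0.78), where 24.1% of genes were, and 59 in Ehmt2+/+ (median -0.60), where 22.7% were, and the median interaction was -0.16. The part of RNA integrity or library preparation in this balance was not tested. The non-member genes of the bottom length tertile had medians of -0.07 in Ehmt2fl/fl and 0.13 in Ehmt2+/+.

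The counts of other genes of the translation apparatus stand beside the same background, 26% of all genes lower and 28.9% higher in Ehmt2fl/fl, and 19.6% and 20.5% in Ehmt2+/+. Of 7 ribosomal protein genes that the naming rule leaves out, 5 fell in Ehmt2fl/fl and 2 in Ehmt2+/+ (medians -1.06 and -0.39). Of 15 elongation factors and other TOP mRNAs, 9 fell and 4 rose in Ehmt2fl/fl, and 3 fell and 4 rose in Ehmt2+/+. Tpt1 fell by 1.65 ± 0.36 (adjusted p = 0.0030) and Eef1b2, an exchange factor for eEF1A, by 1.47 ± 0.34 (adjusted p = 0.0046) in Ehmt2fl/fl, whereas Hnrnpa1 rose by 1.19 ± 0.18 (adjusted p = 3.38e-04). Of 41 ribosome assembly genes, 17 rose and 2 fell in Ehmt2fl/fl, and 18 rose and none fell in Ehmt2+/+, with medians of 0.32 and 0.34. The helicase Ddx21 rose by 1.07 ± 0.15 (adjusted p = 1.99e-04) and fibrillarin (Fbl), which methylates rRNA, by 0.83 ± 0.15 (adjusted p = 0.0011) in Ehmt2fl/fl. Under library totals all 41 assembly genes were higher in both genotypes. Of 78 mitochondrial ribosomal protein genes, a list chosen after the data were seen, 31 fell and 6 rose in Ehmt2fl/fl, and 11 fell and 10 rose in Ehmt2+/+ (medians -0.36 and 0.11), in Ehmt2+/+ a smaller share in each direction than of all genes. Of 22 translation initiation genes, 7 fell and 4 rose in Ehmt2fl/fl and 6 fell and 3 rose in Ehmt2+/+, and of 12 RNA polymerase I genes, 2 and 1 rose and none fell. Of 19 tested regulators of ribosomal protein genes and TOP mRNAs, 8 fell and 1 rose in Ehmt2fl/fl, and 6 fell and 1 rose in Ehmt2+/+. Among them Larp1 fell by 1.30 ± 0.27 in Ehmt2fl/fl (adjusted p = 0.0023), with -0.48 ± 0.24 in Ehmt2+/+ (adjusted p = 0.148), and the S6 kinase gene Rps6kb1 fell in both, by 1.07 ± 0.23 (adjusted p = 0.0027) and 1.28 ± 0.20 (adjusted p = 8.11e-04).

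**Figure D3:**
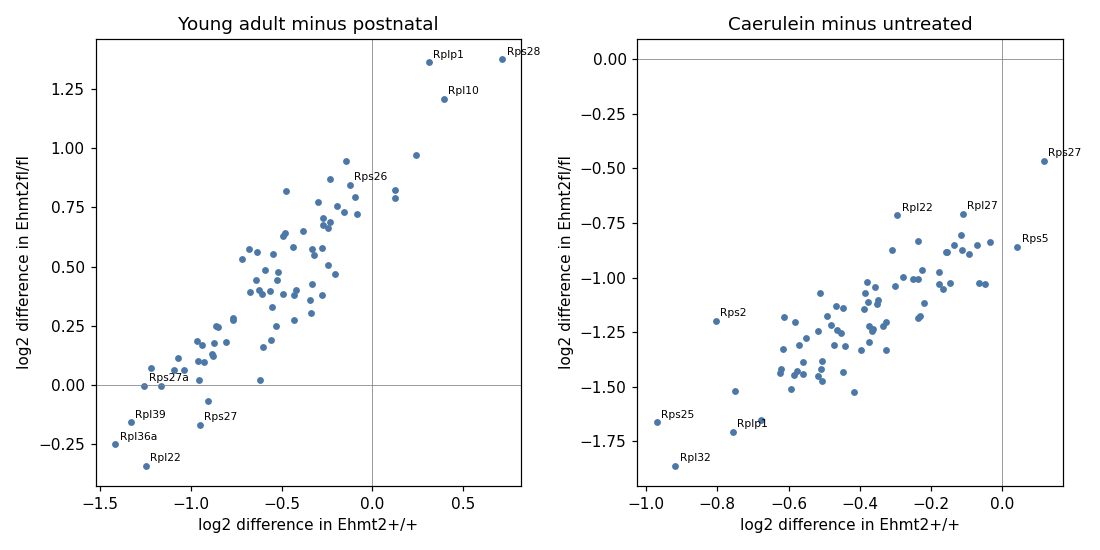
Log2 difference of each of 77 coding ribosomal protein genes in Ehmt2+/+ (x axis) and in Ehmt2fl/fl (y axis), for young adult minus postnatal (left) and caerulein minus untreated (right), under TMM scaling. The genotypes share no library, the order of genes was alike (Pearson's r = 0.91 and 0.85 across genes), and under library totals the whole cloud moves down on the left and up on the right.

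Genotypes were then compared within treated pancreas. In Pdx1-Cre mice, which share the treated libraries of the caerulein comparisons, 28 of 80 members were lower in Ehmt2fl/fl and none higher (adjusted p under 0.1), where 5.53% of all 14440 genes were called lower and 5.92% higher. The median was -0.73 (range -1.22 to -0.34), beside -0.03 for all genes, and 5 members were lower by at least 2-fold, a call made for 2.88% of genes. Of the 77 coding members, 72 were lower in both Ehmt2fl/fl mice than in all 4 Ehmt2+/+ mice, as were 16.3% of all genes. Under library totals 1 member was called higher and none lower, where 70.8% of genes were called higher, with a median of 0.14 against 0.83 for all genes. The count also turned on single mice, again with no share of all genes from those fits beside it. It was 0 without either of the 2 Ehmt2fl/fl mice, 4, 8 and 7 without Ehmt2+/+ replicates 1, 2 and 3, and 67 without replicate 4. Fitted on these 2 groups alone it was 7, where 3.97% of genes were called lower, and DESeq2 called 64, where 8.73% were.

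Rps28, a small subunit protein at the mRNA exit, had the lowest adjusted p. It was at 178, 176, 197 and 129 CPM in Ehmt2+/+ and at 80.4 and 88.7 CPM in Ehmt2fl/fl, and was lower by 1.03 ± 0.22 (log2; adjusted p = 0.0232). Rpl13a was at 911, 586, 590 and 506 CPM against 228 and 333 CPM, and was lower by 1.22 ± 0.31 (adjusted p = 0.0472). Neither gene's groups overlapped. Rpl23, another inhibitor of Mdm2, was lower by 1.04 ± 0.26 (adjusted p = 0.0456), and Rpl37 by 0.99 ± 0.23 (adjusted p = 0.0307). Rplp1 was lower by 0.82 ± 0.25 (adjusted p = 0.0893) and Rps6 by 0.72 ± 0.23 (adjusted p = 0.0964). Rpl22, Rps19 and Rps2 stood highest, at -0.50 ± 0.27, -0.48 ± 0.27 and -0.34 ± 0.23, and did not pass. Under library totals the differences of Rps28, Rpl13a and Rpl23 were -0.15, -0.35 and -0.16, and that of Rplp1 was 0.063.

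Several measures differed between these mice together with the members. Y-linked genes marked all 4 mice of the Ehmt2+/+ group as female and both of the other genotype as male, so in Pdx1-Cre mice sex and genotype cannot be told apart. With sex as a term, which could be estimated from the P48-Cre mice alone, the median was -0.76 and no member was called. Length balance over the treated mice was -0.09, 0.07, 0.08 and 0.36 in Ehmt2+/+, against 0.28 and 0.23 in Ehmt2fl/fl, and with it as a term 54 members were lower (median -0.51), as were 7.76% of genes. Digestive enzymes took 56.0 to 68.2% of counts in Ehmt2+/+, against 41.6 and 43.0% in Ehmt2fl/fl. The summed level of 14 of 14 macrophage and monocyte markers was 656 to 1103 CPM in Ehmt2+/+, against 1804 to 2119 CPM in Ehmt2fl/fl, and that of 3 of 9 neutrophil markers with counts in every library was 5.55 to 16.1 and 46.1 to 78.7 CPM. Islet markers were at 228 to 871 CPM against 954 to 2031 CPM, without overlap, and fibroblast markers at 608 to 2229 CPM against 2210 to 3322 CPM, which overlap. The part of these measures in the members' difference was not tested. Of 41 ribosome assembly genes 3 were higher and none lower (median 0.14), and of 78 mitochondrial ribosomal protein genes 4 were lower (median -0.39), shares near the 5.92% and 5.53% of all genes. Rpl22l1 was lower by 1.22 ± 0.28 (adjusted p = 0.0312), and Pdcd4, an inhibitor of translation initiation, by 2.10 ± 0.32 (adjusted p = 0.0070).

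In P48-Cre mice with pancreatitis no member passed the threshold in edgeR or in DESeq2, and 0 had an unadjusted p under 0.05, as 19.1% of all genes had. At the adjusted threshold the background was 5.33% of genes higher and 3% lower. The median was 0.13 (range -0.37 to 0.35), beside 0.02 for all genes. Rps28 was at 158 and 150.4 CPM in Ehmt2+/+ and at 97.2, 125 and 137 CPM in Ehmt2fl/fl, which did not overlap (so for 3 of 77 members and 15.8% of all genes), with a difference of -0.37 ± 0.22 (adjusted p = 0.405). Rpl13a was at 1140.1 and 629 CPM against 600, 702 and 783 CPM, which overlap, with -0.34 ± 0.31 (adjusted p = 0.612). Under library totals 79 members were called higher, as were 61.9% of genes, with a median of 0.89 against 0.81 for all genes. Length balance was -0.11 and 0.07 in Ehmt2+/+, against -0.10, -0.23 and -0.57 in Ehmt2fl/fl, and with it as a term the median was -0.29 and none was called. The markers of macrophages and monocytes were at 552 to 923 CPM in Ehmt2+/+, against 1494 to 2781 CPM in Ehmt2fl/fl. Those of neutrophils, 3 of 9, were at 4.60 to 4.75 CPM against 31.8 to 76.1 CPM. Digestive enzymes took 62.8 and 66.5% of counts in Ehmt2+/+, against 46.7 to 54.0% in Ehmt2fl/fl. These measures thus differed between genotypes here too, where no member was called. Islet markers were at 521 to 582 CPM against 542 to 1127 CPM, which overlap.

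The difference between the 2 drivers was tested as an interaction. All 80 estimates were positive, with a median of 0.84 (range 0.44 to 1.38), beside 0.04 for all genes, and none passed the edgeR test, which called none of 14440 genes. At an unadjusted p under 0.05 there were 46 members, where 4.86% of all genes were, and DESeq2 called 0 members. With length balance as a term the median was 0.21 and 0 members had an unadjusted p under 0.05. The 2 genotype comparisons share no library, and across 77 members their log2 differences had Pearson's r of 0.60 and Spearman's rho of 0.49, with Rps28 and Rpl13a low in both and Rps19 and Rps2 high in both.

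In untreated pancreas no member passed the test between genotypes. At PN the 77 estimates were all negative, with a median of -0.88 (range -1.25 to -0.52), and none was called, where 0.21% of 11907 genes were called higher and 0.0336% lower. At an unadjusted p under 0.05 there were 16, where 8.99% of all genes were, and DESeq2 called 0. Rplp0 was at 909, 2253 and 1926 CPM in Ehmt2+/+ and at 782, 1354 and 746 CPM in Ehmt2fl/fl, with a difference of -0.87 ± 0.39 (adjusted p = 0.549). Rpl12 had the most negative difference, -1.25 ± 0.52 (adjusted p = 0.527). In 4 of 77 members every Ehmt2fl/fl mouse was below every Ehmt2+/+ mouse, as in 4.77% of all genes. The members of a library shifted together. Length balance was 0.24, -0.47 and -0.18 in Ehmt2+/+, against 0.30, -0.25 and 0.30 in Ehmt2fl/fl. The 3 PN libraries with positive values were the 3 in which members were low. With length balance as a term the median was -0.26, and its part in the genotype difference was not tested. Without Ehmt2fl/fl replicate 2 the count was 9 lower, with no share of all genes from that fit beside it. In YA pancreas the median was 0.09 (range -0.22 to 0.43), with 0 members called by edgeR or DESeq2 and 0 at an unadjusted p under 0.05, where 9.23% of genes were and the adjusted test called 0.328% higher and 0.0168% lower. Rplp0 was at 1540.3 and 1206 CPM in Ehmt2+/+ and at 2217, 1352 and 1156 CPM in Ehmt2fl/fl, which overlap, with 0.21 ± 0.44 (adjusted p = 0.982). With length balance as a term the YA median was -0.42.

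**Figure D4:**
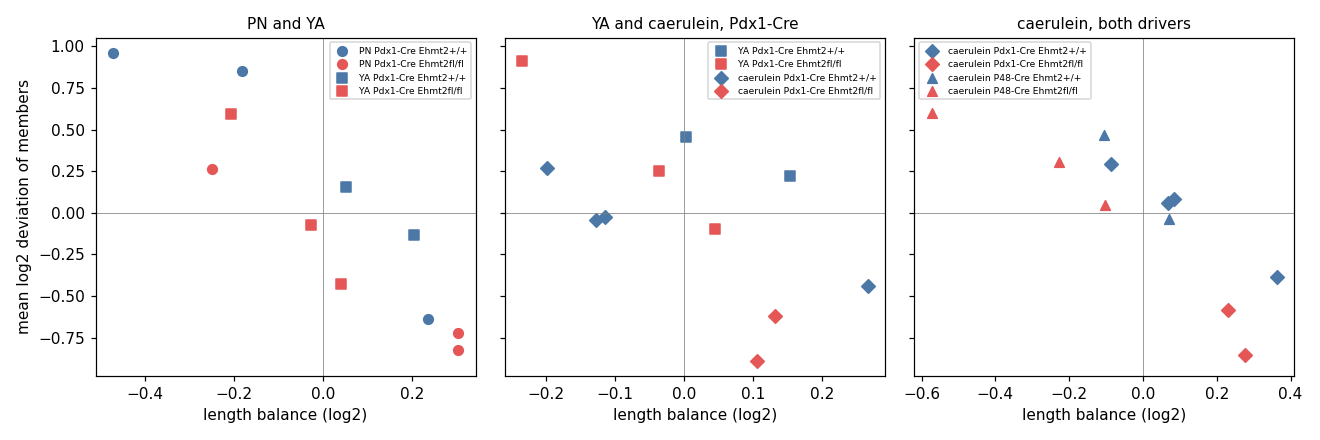
Length balance of each library (x axis, log2, top minus bottom length tertile of genes) against the mean log2 deviation of ribosomal protein genes from their mean over the fit (y axis), for the 3 sets of libraries fitted together. Blue is Ehmt2+/+ and red Ehmt2fl/fl. The PN libraries with balances of 0.24, 0.30 and 0.30 are the 3 with low members, and those with -0.47, -0.18 and -0.25 are the 3 with high members.

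With age, library totals shifted all genes alike, as after caerulein. Under TMM, in Ehmt2fl/fl pancreas 10 of 77 members were higher in YA than at PN and none lower, where 18.6% of genes were called higher and 19.7% lower. The median was 0.40 (range -0.34 to 1.38), beside -0.04 for all genes, and 3 members passed 2-fold, where 7.93% of genes were called higher. In Ehmt2+/+ pancreas 0 of 77 passed in edgeR, where 14.1% were called higher and 14.9% lower, with a median of -0.53 (range -1.42 to 0.72), no member at an unadjusted p under 0.05, where 35% of genes were, and 2 called lower by DESeq2, where 15.9% of genes were. Under library totals all 77 were called lower in both genotypes, as were 96.1% of genes in Ehmt2fl/fl and 89.4% in Ehmt2+/+, with medians of -1.66 and -2.22. Relative to the median gene, the median member stood at 0.44 in Ehmt2fl/fl and -0.51 in Ehmt2+/+ under TMM, and at 0.37 and -0.50 under library totals. The age interaction had a median of 0.99 and no call in edgeR or DESeq2, with 2 members at an unadjusted p under 0.05, where 7.97% of genes were and the adjusted test called 0.0336% higher, and its median was -0.17 with length balance as a term. With length balance as a term 8 members were higher in Ehmt2+/+ (median 0.14), where 21.6% of genes were, and 13 were higher and 5 lower in Ehmt2fl/fl (median 0.05), where 30.9% and 29.9% of genes were. Without PN Ehmt2+/+ replicate 1, 31 members were lower in Ehmt2+/+. The share of all genes called in the fits without a mouse is not given, so these counts have no background. In Ehmt2fl/fl the count of 10 became 3, 21 and 5 without PN replicates 1, 2 and 3, and 2 and 6 without YA replicates 1 and 2.

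The 3 members past 2-fold in Ehmt2fl/fl were Rps28, Rplp1 and Rpl10, a large subunit protein that in yeast joins among the last. Under TMM Rps28 rose by 1.38 ± 0.35 (adjusted p = 0.0139), Rplp1 by 1.36 ± 0.42 (adjusted p = 0.0326) and Rpl10 by 1.21 ± 0.31 (adjusted p = 0.0133), while under library totals they were at -0.74, -0.72 and -0.85. In Ehmt2+/+ the differences were 0.72 ± 0.38, 0.31 ± 0.46 and 0.39 ± 0.34, which did not pass. At the other end stood Rpl36a, Rpl39, Rps27a and Rpl22, with -1.42 ± 0.67, -1.33 ± 0.69, -1.26 ± 0.66 and -1.25 ± 0.58 in Ehmt2+/+, against -0.25 ± 0.57, -0.16 ± 0.59, -0.01 ± 0.57 and -0.34 ± 0.50 in Ehmt2fl/fl, none of which passed. The age comparisons of the 2 genotypes share no library, and across the 77 members Pearson's r was 0.91 and Spearman's rho 0.89.

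The levels can also be given without any scaling of libraries, as the share of each member in all ribosomal protein counts. Of 77 members, 10 had a higher share in every YA mouse than in every PN mouse and 9 a lower one. This share is not defined for other genes, so these counts have no share over all genes beside them. By CPM in Ehmt2+/+, 1 member was higher in every YA mouse and 0 lower, against 23% and 25.1% of all genes. In Ehmt2fl/fl 6 were higher and 0 lower, against 21.2% and 27.1%. The members given here were mostly chosen as the ends of the age comparison in the same libraries, so their shares are a description and no independent evidence. Rplp1 made up 2.76, 2.45 and 2.25% of these counts in PN Ehmt2+/+ and 2.68, 2.31 and 2.53% in PN Ehmt2fl/fl. In YA it made up 3.99 and 4.63% in Ehmt2+/+, against 4.80, 4.36 and 4.32% in Ehmt2fl/fl, so that every YA mouse was above every PN mouse. After caerulein its share was 3.04 to 3.54% in the 11 treated mice of both drivers, between the PN and YA mice and overlapping neither.

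The X-linked Rpl10 made up 1.30 to 2.46% at PN and 2.65 to 2.96% in YA, which do not overlap. Within PN its 3 highest shares, 2.46, 2.35 and 1.91%, were those of the 3 libraries with positive length balance. Rps28 made up 0.29 to 0.69% at PN and 0.59 to 1.08% in YA, which overlap. Rpl36a, also X-linked, made up 0.48 to 0.84% at PN and 0.37 to 0.44% in YA, which do not overlap. Rpl22 made up 0.45 to 0.64% at PN and 0.28 to 0.40% in YA, which do not overlap either, and Rps27a and Rpl39 overlapped between the ages. Rps27 made up 0.39 to 0.52% in YA and 0.55 to 0.91% in every treated mouse.

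**Figure D5:**
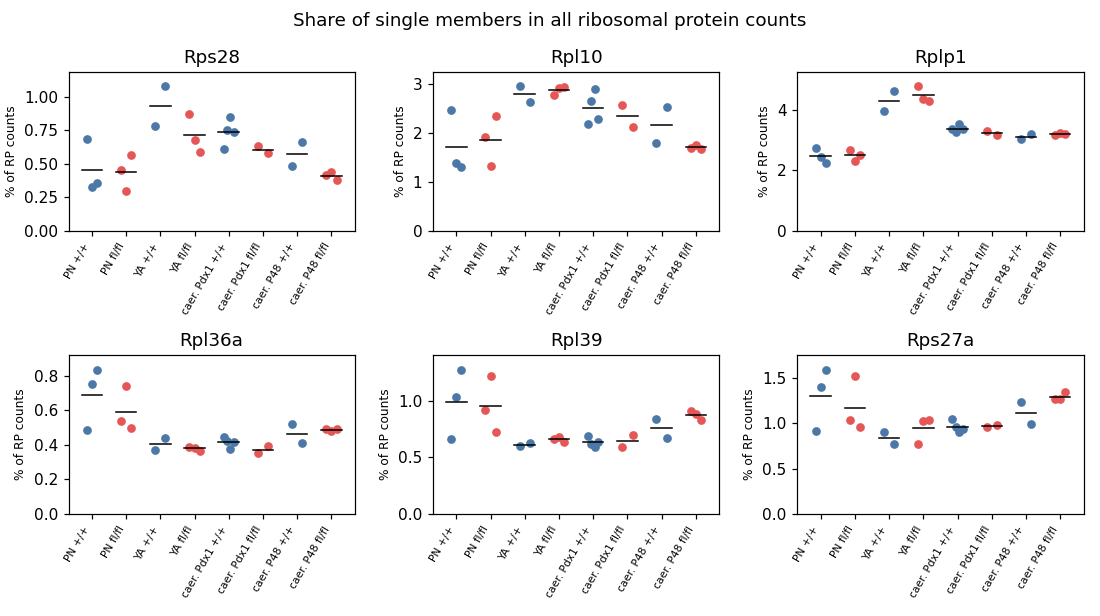
Share of 6 members in all ribosomal protein counts of each library (y axis, percent, from 0) in the 8 groups, with blue for Ehmt2+/+, red for Ehmt2fl/fl and a bar for the group mean. Rplp1 lies at 2.25 to 2.76% in the 6 PN libraries, 3.99 to 4.80% in the 5 YA libraries and 3.04 to 3.54% in the 11 treated libraries.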

How the data were processed

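Whole pancreas RNA from 22 mice in 8 groups was sequenced with a TruSeq RNA v2 kit, which does not mark strand. The authors aligned reads to a GENCODE transcriptome on GRCm38.p6 with MapRseq3 and deposited raw read counts per gene in 6 tables, 1 for each comparison, each after a filter on low expression. The submitters' processing notes name edgeR 3.28.1. RPKM values deposited by the authors beside the counts, per kilobase of the gene length given there, were not used. Columns with the authors' own log2 fold changes and mean log2 CPM, and with their p-values and false discovery rates, hold the results of their tests and were not used either. Animal identifiers differ between the samples, and no 2 libraries held identical values.

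Counts of the same library agreed in every table. Libraries were fitted in 3 sets, PN with YA, YA with treated Pdx1-Cre, and all treated, with 1 mean per group, on genes listed for every library of the set. Genes were kept by filterByExpr (10 counts at least in enough libraries, 15 in all), scaled by TMM and tested with edgeR 4.0.16 (quasi-likelihood, Benjamini-Hochberg over all genes tested) in R 4.3.3. A call was an adjusted p under 0.1, and a 2-fold call also a log2 difference of at least 1. Of the 80 members, 77 were tested in PN and YA, where the other 3 were not listed, and 80 in the treated sets. Alternatives were other scalings, DESeq2 1.42.0, length balance or sex as a term, the compared groups alone, other filters and leaving out each mouse. Python 3.11.15 with pandas 2.3.3, numpy 2.4.6, scipy 1.17.1 and matplotlib 3.10.9 was used for summaries. In counts simulated for the caerulein comparison in Ehmt2fl/fl (13468 genes), 93% of 4-fold and 18% of 2-fold changes were recovered. In those for treated Pdx1-Cre genotypes (14440 genes), 90% and 21% were recovered. Each simulation changed 100 genes by each amount, drew genes independently and left all others unchanged. Recovery in a comparison where many genes are called can therefore differ. Named members were those with the lowest adjusted p (up to 5) and the 3 highest and 3 lowest log2 differences of a comparison, together with those of set roles, and not all of them are described. The members, lists and tests were chosen with earlier results of these data known.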

Additional observations from a re-analysis of the deposited data

Results flagged for a closer look

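In treated Pdx1-Cre; Ehmt2+/+ pancreas, the only group of 4 to 10 mice, 2 of 77 members had a mouse far from the other 3, a smaller share than the about 1 in 20 that chance gives. For Rps27 the highest mouse, at 223 CPM, stood apart from 129, 126 and 131 CPM, a gap of 0.956 of the whole range, past Dixon's critical value for 4 samples. For Rpl28, a large subunit protein, the lowest mouse, at 165 CPM, stood apart from 259, 257 and 270.1 CPM, a gap of 0.878 of the range.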

How the results depend on the processing

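Library totals shifted all genes alike, and the values that follow carry that shift. On that scale, members with age were called lower in 77 of 77 cases in both genotypes, with medians of -2.22 in Ehmt2+/+ and -1.66 in Ehmt2fl/fl, 0 were called higher, and Rps28, Rplp1 and Rpl10 in Ehmt2fl/fl were at -0.74, -0.72 and -0.85. After caerulein 80 members were called higher and 0 lower in Ehmt2+/+ (median 1.07), with Rpl32 at 0.54, Rplp1 at 0.68, Rps2 at 0.65 and Rps25 at 0.47. In Ehmt2fl/fl 79 were called higher and 0 lower (median 1.16), with Rplp0 at 0.92, Rplp1 at 0.66, Rplp2 at 1.39, Rpsa at 1.32, Rps6 at 1.30, Rps28 at 0.88, Rps25 at 0.71, Rpl32 at 0.50, Rpl13a at 1.06, Rps2 at 1.17, Rpl5 at 1.15, Rpl11 at 1.16, Rps27a at 1.19, Rps27l at 0.77 and Rpl22 at 1.59, and the median interaction was 0.10. Between treated genotypes 1 member was higher and 0 lower with Pdx1-Cre (median 0.14, Rplp1 0.063, Rps6 0.15), and 79 were higher with P48-Cre (median 0.89). With length balance as a term, the medians were -0.26 for PN genotypes, 0.14 for age in Ehmt2+/+, -0.17 for the age interaction, -0.78 for caerulein in Ehmt2fl/fl, -0.16 for its interaction, -0.29 for treated P48-Cre and 0.21 for the drivers. The counts were then 8 higher with age in Ehmt2+/+, 13 higher and 5 lower in Ehmt2fl/fl, 59 lower after caerulein in Ehmt2+/+ and 54 lower between treated Pdx1-Cre genotypes. DESeq2 called 2 lower with age and 12 lower after caerulein in Ehmt2+/+, 1 lower in the caerulein interaction and 64 lower between treated Pdx1-Cre genotypes. TMM without digestive enzyme and mitochondrial genes gave 16 of 80 lower after caerulein in Ehmt2+/+. That is near the 19.6% of all genes called lower there in the reported fit, which used another scaling. A sex term gave 1 higher and 0 lower there, and 0 lower between treated Pdx1-Cre genotypes, where those groups fitted alone gave 7. The cause of these shifts was not tested. Leaving out each mouse gave counts of 0 to 9 lower for PN genotypes, 0 to 31 lower and 2 to 21 higher with age in Ehmt2+/+ and Ehmt2fl/fl, 0 to 12 and 44 to 78 lower after caerulein in these genotypes, 0 to 2 for its interaction and 0 to 67 between treated Pdx1-Cre genotypes, and medians of -0.099 to 0.42 between treated P48-Cre genotypes and 0.59 to 1.17 for the drivers. A group left with 1 mouse is assumed to vary like the others. These counts have no share of all genes from the same fits beside them. Apart from counts over mice left out and single genes, 203 values kept their direction and size, 29 moved and 8 changed sign. Of the single-gene values, 179 kept them, 18 became weaker and 24 changed sign. With mice left out, 211 values kept them and 20 moved, and for single genes 115 kept them and 38 became weaker. No paired analysis was possible because the labels give each animal its own identifier and no number shared between groups. With 2 to 4 mice a group, 2-fold changes were seldom recovered in simulated counts where few genes changed, so a member without a call may still differ.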
